A study of Mus musculus with 10 samples.

Results

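The regions described here are the p65 regions of RAW264.7 macrophages that carried a peak in every library and lay away from the ends of protein-coding genes. Peaks of the 9 deposited lists on chromosomes 1 to 19, X and Y were merged where they overlapped by at least 1 bp, which gave 235070 merged regions. Of these, 13824 (5.88%) held a peak in all 9 libraries and are called constitutive below. Members were the constitutive regions whose midpoint lay more than 3 kb from both ends of every protein-coding gene (GRCm38.p6, RefSeq), and there were 6493 of them, 47.0% of the constitutive regions and 2.76% of all merged regions. The other 7331 constitutive regions lay within 3 kb of a gene end and are called gene-end regions. Members were thus chosen by the peak calls of the same 9 libraries, so their number and their presence in all groups are descriptions and not results.

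All libraries came from RAW264.7, a macrophage-like line from a tumour that the Abelson leukaemia virus induced in a male mouse, with no further genetic change named. Over 12 h the cells received solvent only (DMSO), solvent together with bacterial lipopolysaccharide (LPS), or LPS together with skatole, an indole compound that gut bacteria form from tryptophan (LPS+Skatole). Each group had 3 libraries, made from 200000 cells each. A cell line is a limited model of tissue macrophages, and no source used here says that the 3 libraries of a group came from separate cultures, so the p-values measure only the spread between these libraries, which may be technical. The series has 10 samples, and the 1 Blank sample, made without primary antibody, was not analysed here. Comparing LPS with DMSO addressed how p65 signal at regions that already had a peak in solvent differed after LPS. Comparing LPS+Skatole with LPS addressed the effect of skatole on top of LPS.

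p65, also called RelA, is the subunit through which NF-κB dimers activate many of their target genes. In resting cells it is held in the cytoplasm by IκB proteins. LPS acts through Toll-like receptor 4 and the IκB kinase, which marks IκB for destruction, and p65 then enters the nucleus and binds κB sites near genes of the inflammatory response. Many of the sites a transcription factor uses lie in introns or between genes, in enhancers that the lineage factors of the cell (PU.1, C/EBP, AP-1, RUNX in macrophages) have opened beforehand. CUT&Tag tethers a transposase to the protein through an antibody, so that DNA near the protein is cut, tagged and sequenced. Sources differ on the antibody, which is given as p65 in the labels and as phosphorylated p65 in the methods. As a check of the cell type, 9 of 12 macrophage genes looked for (among them Spi1, Csf1r, Cd14, Lyz2, Itgam and Irf8) had a constitutive region in the body or within 3 kb of an end, and 7 had a member. Of 26 genes of other cell types, 2 (Cd3g and Cd79a) had a constitutive region and 0 had a member.

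Although they lie away from gene ends, 453 members (6.98%) covered an annotated transcript start of a protein-coding gene, mostly a start inside the gene (420 members), and 292 (4.5%) covered the start of a long non-coding RNA. The promoter sequences at these starts (250 bases before to 50 after each start, 300 bases in all) were searched for a 10-base κB motif, GGG, any 2 bases, TTTCC, on both strands. The motif was present in 2.18% of 963 windows in members, in 1.75% of 7447 windows in gene-end regions and in 1.63% of all 32851 windows. These are shares of windows and not of separate sites. In members the same match at Nfkb2, at Tank and at Cdc14b was counted in overlapping windows, and such repeats were not removed in any set. The windows below are shown because a κB match lies in them and their genes belong to NF-κB signalling or its known targets, apart from Lmna, shown as the tallest member outside these. The printed Nfkb2 windows are at chr19:46304487-46304786 and chr19:46305445-46305744 (plus strand; another, chr19:46305680-46305979, overlaps the second and holds the same match), Cxcl2 at chr5:90903649-90903948 (plus strand), Tank at chr2:61592902-61593201 (plus strand), Tnfrsf9 at chr4:150927749-150928048 (plus strand) and Lmna at chr3:88493263-88493562 (minus strand), all on GRCm38.p6 from RefSeq. Sequences run 5′ to 3′ on the strand of the gene, and capitals mark the κB matches.
Nfkb2, first inner start: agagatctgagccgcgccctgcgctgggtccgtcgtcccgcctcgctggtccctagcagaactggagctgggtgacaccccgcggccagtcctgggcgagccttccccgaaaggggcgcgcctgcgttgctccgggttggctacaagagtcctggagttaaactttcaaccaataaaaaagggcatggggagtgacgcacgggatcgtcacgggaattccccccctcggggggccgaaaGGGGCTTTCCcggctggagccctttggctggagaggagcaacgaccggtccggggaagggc
Nfkb2, second inner start: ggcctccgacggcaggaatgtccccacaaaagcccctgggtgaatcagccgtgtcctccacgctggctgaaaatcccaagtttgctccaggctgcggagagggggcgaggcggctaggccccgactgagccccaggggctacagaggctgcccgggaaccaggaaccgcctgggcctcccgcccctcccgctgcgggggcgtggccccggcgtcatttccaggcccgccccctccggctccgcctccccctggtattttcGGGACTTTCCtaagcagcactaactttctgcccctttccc
Cxcl2: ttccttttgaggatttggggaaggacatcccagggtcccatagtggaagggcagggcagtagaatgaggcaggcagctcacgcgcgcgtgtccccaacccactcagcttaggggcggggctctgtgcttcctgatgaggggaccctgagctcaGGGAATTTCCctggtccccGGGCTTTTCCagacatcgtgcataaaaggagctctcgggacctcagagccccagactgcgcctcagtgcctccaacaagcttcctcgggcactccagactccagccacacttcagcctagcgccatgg
Tank: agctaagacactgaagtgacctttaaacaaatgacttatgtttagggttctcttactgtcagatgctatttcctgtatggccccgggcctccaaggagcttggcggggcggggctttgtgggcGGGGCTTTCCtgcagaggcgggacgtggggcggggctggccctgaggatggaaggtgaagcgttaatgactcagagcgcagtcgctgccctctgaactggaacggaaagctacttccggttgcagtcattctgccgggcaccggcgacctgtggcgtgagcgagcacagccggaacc
Tnfrsf9: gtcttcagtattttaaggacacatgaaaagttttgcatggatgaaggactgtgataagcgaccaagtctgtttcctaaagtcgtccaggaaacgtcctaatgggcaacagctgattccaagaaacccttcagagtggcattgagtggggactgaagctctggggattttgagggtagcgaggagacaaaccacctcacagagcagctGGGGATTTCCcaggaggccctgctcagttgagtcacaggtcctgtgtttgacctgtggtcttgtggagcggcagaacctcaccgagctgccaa
Lmna: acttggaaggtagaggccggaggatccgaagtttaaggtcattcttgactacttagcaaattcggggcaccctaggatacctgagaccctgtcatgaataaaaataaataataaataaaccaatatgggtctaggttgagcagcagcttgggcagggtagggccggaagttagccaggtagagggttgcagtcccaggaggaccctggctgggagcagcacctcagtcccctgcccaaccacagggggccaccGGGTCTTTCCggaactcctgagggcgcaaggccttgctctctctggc

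The Cxcl2 window held 2 matches, which begin 97 and 78 bases before the start. In the Nfkb2 windows a match began 11 bases before the first start and 10 bases after the second. The members that hold the Tank, Tnfrsf9 and Lmna windows stood at 70.4, 18.5 and 118 times background on average, and none changed with LPS by the limma test described below. A match is a description of the letters and not a bound site. Other motifs searched in the same windows gave TGANTCA (AP-1) in 10.7% of the windows in members, 3.99% in gene-end regions and 7.81% of all windows, and GAGGAAGT (PU.1) in 4.78%, 3.12% and 3.2%. TTGCNNAA (C/EBP) was found in 10.1%, 8.03% and 10.8%, and CCAAT (NF-Y) in 34.5%, 41.1% and 37.4%. The IRF motif (GAAA, any 2 bases, GAAA) was found in 2.91%, 2.98% and 3.44%, TGTGGTTT (RUNX) in 1.77%, 1.11% and 1.78%, and the CTCF motif (CCAC, any base, AG, any 2 bases, GGC) in 1.25%, 0.792% and 0.648%. The windows of members were 58.0% G and C, against 61.9% at gene ends and 53.8% over all windows. The members without a start, the large majority, have no window in this set.

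Members also covered genes of small RNAs, which the rule did not use. Of the 1005 miRNA hairpins in the RefSeq table, 17 lay in or overlapped 16 members, with 29 mature sequences. Those below are shown because they sit in the tallest of these members or are known in macrophages, with the seed (bases 2 to 8) in capitals. The mature sequences lie at chr3:69009775-69009796 and chr3:69009918-69009939 (plus strand) for miR-15b and miR-16, at chr7:141221407-141221428 (minus strand) for miR-210, at chr10:122985698-122985719 (minus strand) for let-7i and at chr11:53763597-53763618 (minus strand) for miR-7671.
mmu-miR-15b-5p: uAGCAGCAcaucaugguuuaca
mmu-miR-16-5p: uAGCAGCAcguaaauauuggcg
mmu-miR-210-3p: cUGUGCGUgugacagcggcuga
mmu-let-7i-5p: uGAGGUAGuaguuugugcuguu
mmu-miR-7671-3p: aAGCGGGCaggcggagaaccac
miR-15b and miR-16 share the seed AGCAGCA and lie in 1 member, whose summits lay at a gene end and not at the hairpins.

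Values are summit heights. Summit fragments were recovered from the deposited fold and p of each peak and were divided by the genome background of its library, the lowest expected count in its list. The background was 1.09 to 1.4 fragments for DMSO, 2.23 to 2.34 for LPS and 2.26 to 2.39 in LPS+Skatole, so DMSO libraries were shallower. The lists held 37551 to 43450 peaks for DMSO, 55637 to 63498 for LPS and 78136 to 80153 for LPS+Skatole. The lowest summit called was 6.44 to 7.34 times the background in DMSO and 4.59 to 4.94 times in the other groups, so the rule cut off member heights at a higher level in DMSO. The total number of reads per library was not used here.

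Constitutive regions were the smaller part of the merged regions in both classes of place. Of 194939 merged regions away from gene ends, 3.33% were constitutive and 75% were found in 1 library, while of 40131 merged regions at gene ends 18.3% were constitutive and 53.3% were found in 1 library. The mean height of a member over the 9 libraries had a median of 27.5 times background (quartiles 20.4 and 38.2), against 37.4 (25.8 and 56.4) at gene ends. Members were 2145 bp wide at the median and gene-end regions 2328 bp. The nearest gene end lay 16.3 kb from the midpoint at the median, with 2212 members (34.1%) at 3 to 10 kb, 3145 (48.4%) at 10 to 50 kb, 696 at 50 to 100 kb and 440 beyond 100 kb. Median height was 29.0 times background in the nearest of these classes and 24.7 in the farthest. Gene bodies held 3942 members (60.7%, median height 27.0) and 2551 (39.3%, 28.1) lay between genes. The summits of a member fell within 532 bp over the 9 libraries at the median, against 368 bp for gene-end regions. On chromosome 7 members made up 38.3% of the constitutive regions and on chromosome 13 55.1%, the extremes among autosomes, and on X 28.7%.

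The members stood higher over background with LPS+Skatole than with LPS or DMSO. The median height of the members was 26.6, 26.5 and 25.8 times background in the DMSO libraries, 23.5, 23.8 and 24.7 in LPS, and 30.8, 31.4 and 30.9 in LPS+Skatole. The group means were 26.3 ± 0.457, 24.0 ± 0.633 and 31.0 ± 0.336 (SD, n = 3), and no groups overlapped. In log2 units LPS lay 0.129 below DMSO (difference -0.129), and LPS+Skatole lay 0.369 above LPS and 0.24 above DMSO. A two-sided exact permutation test gave p = 0.1 for each pair, the smallest p that 3 libraries against 3 allow. Over the 3 groups together the exact p was 0.00357, the smallest that the 280 divisions allow, and 0.00436 after adjustment over the 22 measures tested. The peak calls that chose the members also cut off their heights, at a higher level in DMSO. The permutation tests of heights and gaps, here and below, are therefore not independent of the rule. The part of the cut-off in the differences was not tested. The lower value in LPS depended on the scale: with the authors' fold, which divides by the local expected count, LPS lay 0.134 above DMSO.

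At gene ends the medians took another order, 40.4, 40.8 and 41.2 in DMSO, 32.7, 33.2 and 35 in LPS, and 38.0, 38.5 and 38.0 in LPS+Skatole. LPS+Skatole was thus above DMSO in the members and below DMSO at gene ends, again with no overlap of the libraries (exact permutation p = 0.1 for the pair in both classes). The direction at gene ends turned with the scale: the median log2 of the authors' fold there was 3.57, 3.65 and 3.66 in the DMSO libraries and 3.76, 3.81 and 3.79 in LPS+Skatole.

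**Figure D1:**
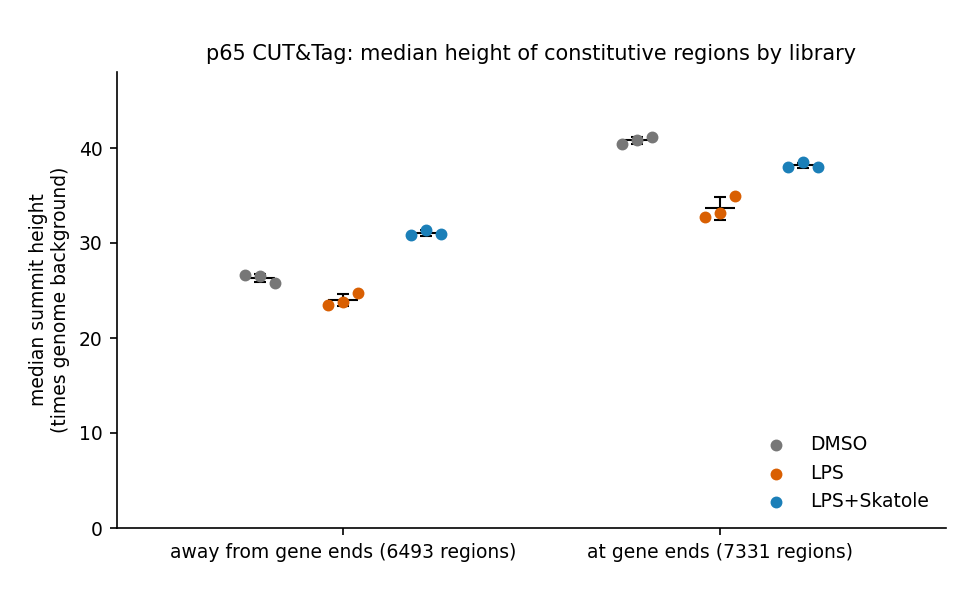
Each point is the median summit height (times genome background) of 1 library over the members (left) or the gene-end regions (right), with the mean and SD of each group. In the members the LPS+Skatole libraries sit at 30.8 to 31.4, above the DMSO libraries at 25.8 to 26.6, and at gene ends they sit below DMSO.

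Within each library the members lay below the gene-end regions, and this gap narrowed from DMSO to LPS to LPS+Skatole. The member median minus the gene-end median, in log2 units, was -0.601, -0.623 and -0.678 in DMSO, -0.474, -0.482 and -0.5 in LPS, and -0.306, -0.293 and -0.298 in LPS+Skatole. The means were -0.634 ± 0.0395, -0.485 ± 0.0132 and -0.299 ± 0.00634 (SD, n = 3), so the gap was 0.149 smaller in LPS than in DMSO and 0.186 smaller in LPS+Skatole than in LPS. The groups did not overlap (exact permutation p = 0.1 for each pair, 0.00357 over the 3 groups, adjusted 0.00436). Regions with a high local expected count were more common at gene ends: it exceeded 5 times the background in 1873 of them (25.5%) and in 869 members (13.4%). Among regions with a local expected count of at most 2 times the background the gap was -0.494, -0.361 and -0.194 in the order DMSO, LPS and LPS+Skatole. With the authors' fold the gap was -0.236, -0.0885 and 0.0837, so the order of the groups held and the sign turned in LPS+Skatole.

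The narrowing was seen in members with no annotated start and in those at long non-coding RNA starts. The 5651 members (87.0%) that covered no start and no small RNA gene had mean gaps of -0.692 ± 0.0354, -0.529 ± 0.0206 and -0.333 ± 0.00611 (SD, n = 3) in DMSO, LPS and LPS+Skatole. Set against the 2062 gene-end regions that likewise covered no start or small RNA gene, they had gaps of -0.338, -0.233 and -0.105. At long non-coding RNA starts the gap went from -0.332 to -0.202 and -0.0281. All 3 series had an exact permutation p of 0.00357 over the 3 groups (adjusted 0.00436). The 453 members at coding starts were close to the gene-end level in every group, at -0.0547, -0.0698 and -0.0165, and for them the exact permutation p over the 3 groups was 0.132. Members at small RNA genes were the only kind with a mean above the gene-end median in each group, by 0.0866, 0.299 and 0.201 (exact permutation p = 0.0286, adjusted 0.0315). Both members in gene bodies (-0.664, -0.512 and -0.333) and members between genes (-0.608, -0.408 and -0.24) showed the narrowing. Whether the kinds differed from each other in the size of the change was not tested.

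**Figure D2:**
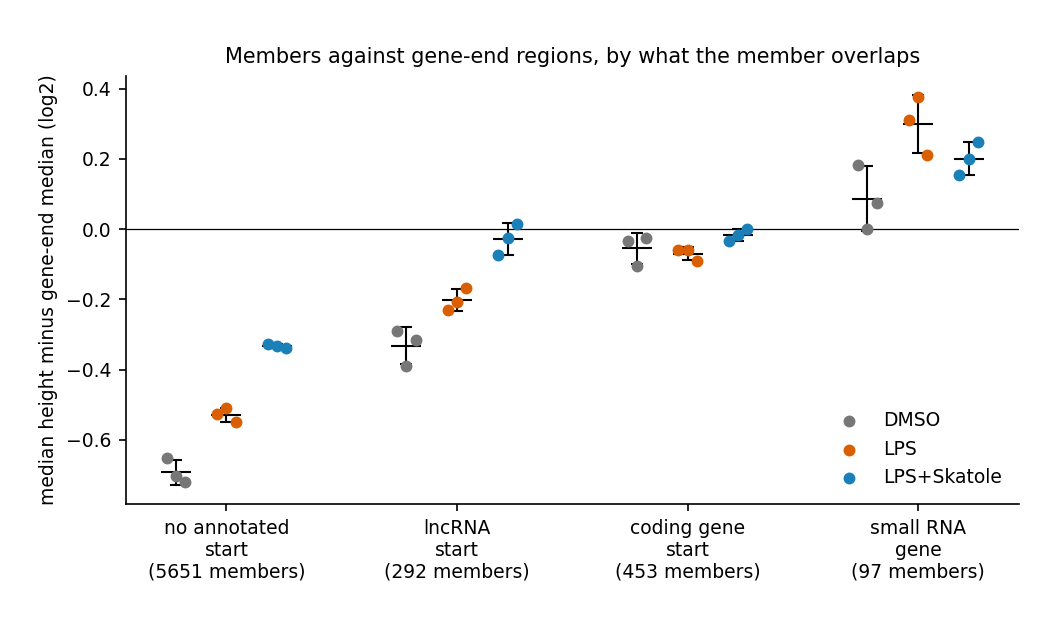
Median height of each kind of member minus the median of the gene-end regions of the same library (log2), with 1 point per library and the mean and SD of each group. Members with no annotated start move from -0.692 in DMSO to -0.333 in LPS+Skatole, while members at coding gene starts stay between -0.105 and 0.0.

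Called peaks in members also differed in breadth. The median number of peak bases per member was 884, 1005 and 991 bp in DMSO, 1251, 1226 and 1255 bp in LPS, and 1401, 1398 and 1419 bp in LPS+Skatole. The rule that chose the members used these same called extents, so the widths are a description and not a test. In gene-end regions the means were 1220, 1415 and 1481 bp, so the ratio of LPS+Skatole to DMSO was 1.46 in members and 1.21 at gene ends. The genome background, a measure of depth, was lower in DMSO than in the other groups and its part in the result was not tested, while between LPS (2.23 to 2.34 fragments) and LPS+Skatole (2.26 to 2.39) it overlapped. With the peaks of a list ranked by −log10 p, the best peak of the median member stood at percentile 76.7 ± 1.69 for DMSO. It stood at 84.7 ± 0.94 for LPS and 88.8 ± 0.111 in LPS+Skatole (SD, n = 3). A percentile moves with the length of the list, which was shortest in DMSO and longest in LPS+Skatole, so these ranks do not show a change of the members. Since every member has a peak in every library, the share of the peaks of a list that lay in members followed from the length of the list, at 19.9% of a DMSO list, 14% of an LPS list and 10.5% of an LPS+Skatole list. Of the summit fragments of a list they held 37.5%, 28.7% and 26.2%, or 24.3%, 21.5% and 19.6% when regions over 500 times the background were left out, shares that also move with list length. With lists cut to the length of the shortest, the share was 35.4% in DMSO and 30.6% in LPS, and at 30.8% in LPS+Skatole it no longer fell (exact permutation p = 0.6 against LPS).

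To find which members changed, limma was fitted to log2 summit fragments of all 13824 constitutive regions, with each library centred on its median over them, so a change is relative to the median constitutive region. With LPS against DMSO, 140 members (2.16%) rose and 37 (0.57%) fell at a Benjamini-Hochberg adjusted p under 0.05, where over all constitutive regions 1.28% rose and 0.514% fell. All 140 rises and 35 of the falls were of at least 1.5-fold. At gene ends 37 of 7331 regions rose and 34 fell. Rises made up 2.32% of the members with no start and 0.221% of those at coding starts, and 2.86% of the members between genes against 1.7% in gene bodies. The numbers depend on the scaling. Scaled by the genome background, which shifts every change with LPS by -0.197 log2 units, 79 members rose and 163 fell, where over all constitutive regions 0.709% rose and 3.68% fell; all 79 were among the 140. On the scale of the authors' fold 22 members rose and 2 fell, where 30 of all 13824 constitutive regions rose and 6 fell. Leaving out LPS library 1, 2 or 3 left 53, 73 or 58 rises.

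**Figure D3:**
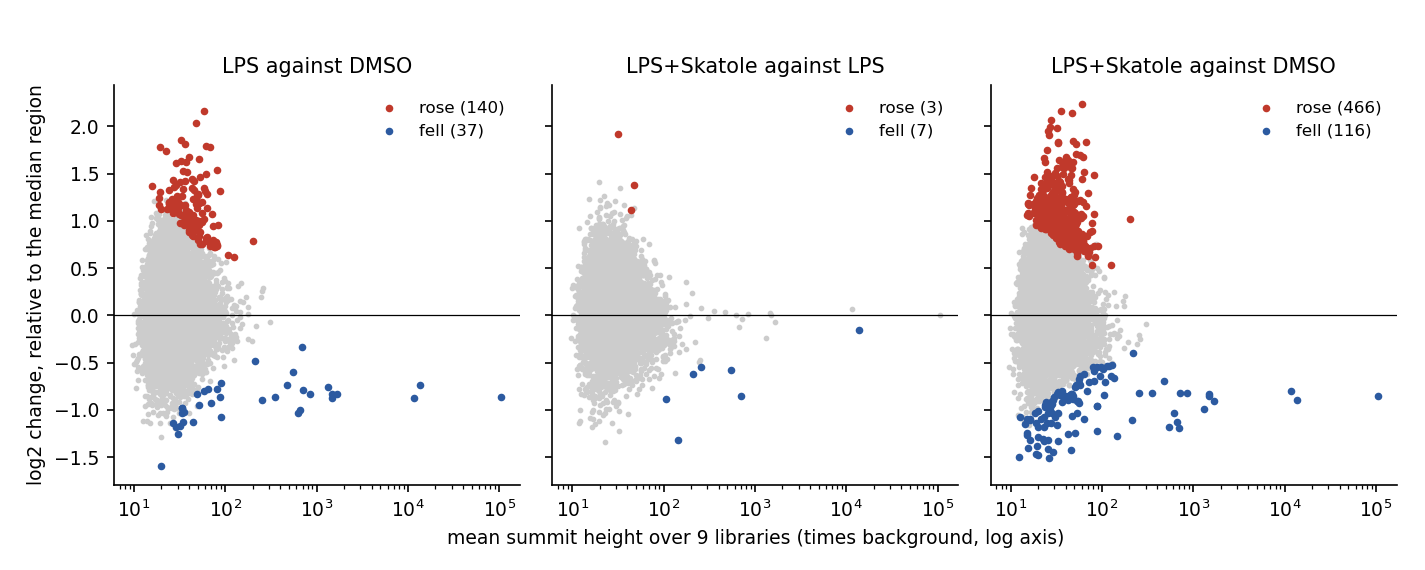
Each point is a member, with its mean summit height over the 9 libraries (times background, log axis) against its log2 change relative to the median constitutive region, for the 3 comparisons. Members that passed the adjusted p threshold are coloured: 140 rose and 37 fell with LPS, 3 rose and 7 fell on adding skatole, and 466 rose and 116 fell with both against solvent.

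Of the 19 genes of NF-κB subunits and inhibitors looked at, 10 (52.6%) had a member assigned, 21 members in all with a median height of 31.3, where 3652 of 21887 protein-coding genes (16.7%) had one. A member was assigned to the gene whose body holds it, or else to the gene with the nearest end within 100 kb. With LPS against DMSO, 3 of the 21 rose (14.3%) and 0 fell, where 2.16% of all members rose and 0.57% fell. Of the 21, 16 lay above 0, where 3483 of all 6493 members did. The median change of the 21 was 0.45 log2 units, where the median over all members was 0.03. The list was drawn up with earlier results of these data known.

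The largest of these rises was in the body of Nfkb1, the gene of p105 and p50, at chr3:135669320-135671256, 21.7 kb from the nearest gene end. Its height was 17.4, 26.5 and 18.4 times background in DMSO, 56.7, 62.0 and 50.8 in LPS, and 79.9, 86.7 and 63.9 in LPS+Skatole. The DMSO libraries lay below all others, and the limma change with LPS was 1.66 log2 units (SE 0.23, adjusted p = 1.69e-05). Its local expected count was 1.61 to 3.04 times the background. The other 3 members of Nfkb1 had changes of -0.22 to 0.45, none of which passed.

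Tnip1 and Tnip2 encode ABIN-1 and ABIN-2, partners of the inhibitor A20. A member in Tnip1 (chr11:54932207-54937245) stood at 30.3, 53.6 and 27.2 in DMSO, 61.5, 60.2 and 65.7 in LPS, and 78.6, 83.2 and 69.3 in LPS+Skatole, a change with LPS of 1.02 (SE 0.22, limma adjusted p = 0.00958). The member assigned to Tnip2 (chr5:34500155-34503052) stood at 18.4, 22.9 and 17.7, then 27.0, 40 and 41.4, then 52.6, 45.6 and 43.0, a change of 1.06 (SE 0.26, adjusted p = 0.0227). Each LPS library exceeded each DMSO library in both. The Tnip1 call was lost without DMSO library 3, LPS library 1 or LPS library 3, and the Tnip2 call without DMSO library 1 or 3 or LPS library 2 or 3, while the Nfkb1 call held without any 1 library.

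Members at other inhibitors did not pass the test with LPS. The 4 members assigned to Tnfaip3, which encodes A20, had changes of 0.9 (limma adjusted p = 0.062), 0.93 (0.137), -0.32 (0.699) and near 0 (0.999), with groups that overlapped in each. The 3 members assigned to Nfkbiz, the gene of IκBζ, had changes of 1.09, 0.77 and 0.05, and the member assigned to Nfkbia, the gene of IκBα, stood at 37.6, 27.9 and 13.2 in DMSO and 25.7, 35.9 and 27.7 in LPS. Bcl3, an atypical IκB, had a member at the start of the long non-coding RNA Gm16174 with 37.6, 35.8 and 33.9 in DMSO and 47.5, 50.8 and 58.9 in LPS (0.74, adjusted p = 0.0614).

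The tallest member of the list did not rise. It covered the inner starts of Nfkb2, the gene of p100 and p52, shown above with their κB matches (chr19:46303559-46306418). Its height was 157, 177 and 152 in DMSO, 170, 147 and 151 in LPS, and 144, 182 and 137 in LPS+Skatole, so the groups overlapped, and the change with LPS was 0.14 (SE 0.14, limma adjusted p = 0.703). Its local expected count was 43.7 to 46.6 times the background in every library.

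Of 44 genes of inflammatory cytokines, chemokines and effectors, 10 (22.7%) had a member, where 16.7% of all protein-coding genes did, 13 in all with a median height of 35.2. With LPS 4 of the 13 rose (30.8%) and 0 fell, 12 lay above 0, and their median change was 0.58 log2 units, where 2.16% of all members rose with a median of 0.03. The 4 include the Cxcl2 member, whose tallest peaks lay at different places in DMSO and LPS, as described below. By the authors' fold 0 members of either list rose, and under every other setting tried, single libraries left out included, each list had 1 to 4 rises.

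Acod1 encodes the enzyme that makes itaconate in activated macrophages, and 2 of its 3 members rose. The member at the start of the long non-coding RNA 4933432I03Rik (chr14:103032498-103034603) stood at 53.2, 42.9 and 47.8 in DMSO, 87.2, 78.2 and 76.4 in LPS, and 85.9, 108 and 87.7 in LPS+Skatole, a change with LPS of 0.95 (SE 0.18, limma adjusted p = 0.00206). Its neighbour (chr14:103035945-103038571) stood at 19.3, 17.9 and 25, then 30.1, 44.5 and 34.1, then 42.3, 48.7 and 55.1, a change of 1.0 (SE 0.25, adjusted p = 0.0335). Neither had overlap between DMSO and LPS. The first call held without any 1 library and the second was lost in 5 of those 6 fits and under scaling by the genome background.

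Il1a encodes the alarmin interleukin-1α. Its member (chr2:129319697-129320684) stood at 17.4, 16.4 and 16.2 in DMSO, 29.6, 32.8 and 30.3 in LPS, and 34.6, 24.8 and 35.9 in LPS+Skatole, a change with LPS of 1.08 (SE 0.27, limma adjusted p = 0.031). The DMSO values were tight and far below the rest, although the call was lost in each of the 6 fits that left out 1 of the libraries compared and under scaling by the genome background. The member assigned to Il1b stood at 45.0, 35 and 44.9 in DMSO and 37.9, 51.2 and 41.0 in LPS, with overlap. Members assigned to Ptgs2 (cyclooxygenase 2), Nos2, Ccl3 and Ccl4 had changes of 0.58, 0.65, 0.44 and 0.63, and those of Lta and Ccl2 changes of -0.02 to 0.33, and none of these passed.

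**Figure D4:**
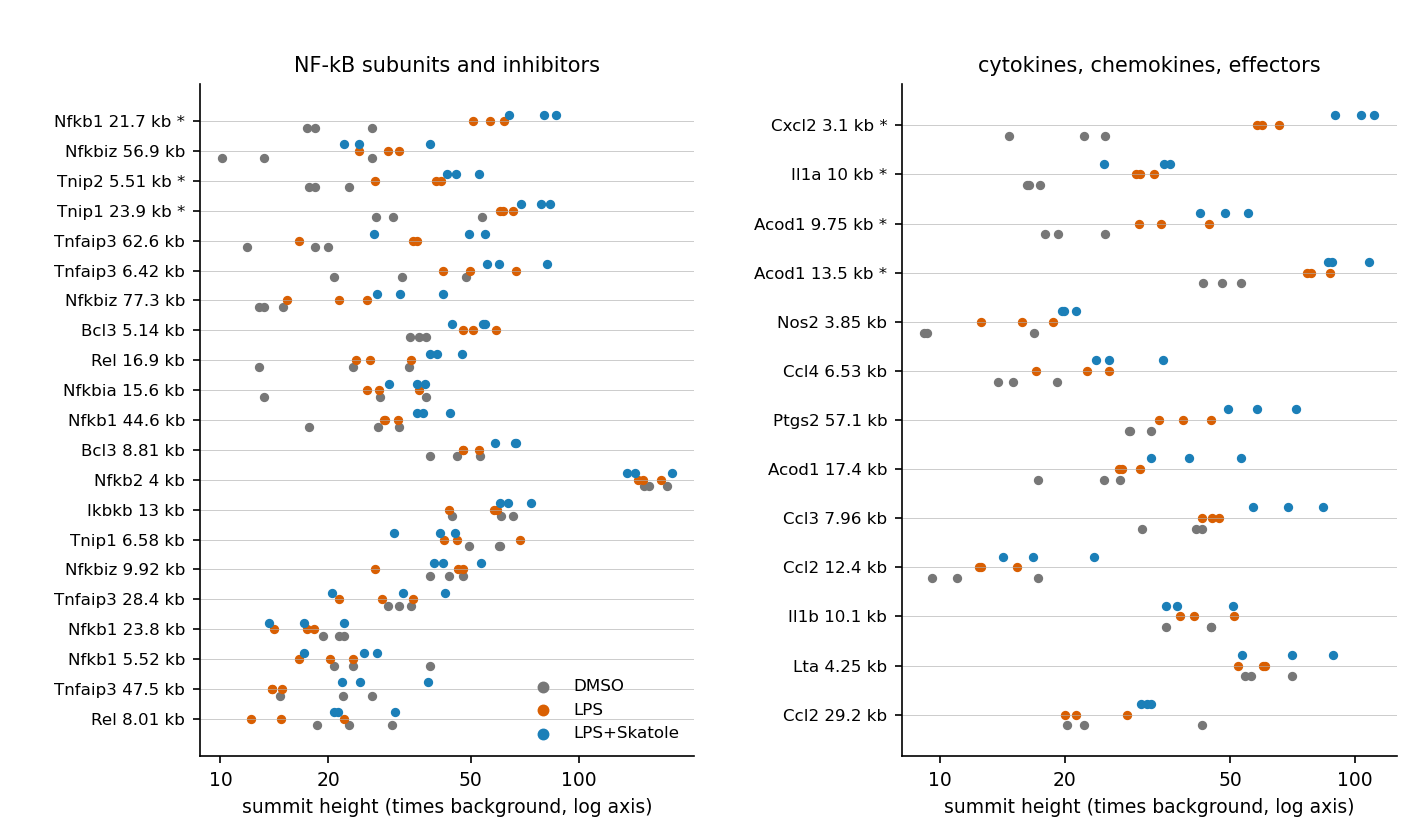
Summit height (times background, log axis) in each of the 9 libraries for every member assigned to a gene of the NF-κB list (left) and of the inflammatory list (right), labelled with the gene and the distance to the nearest gene end, ordered by the change with LPS; an asterisk marks members that rose with LPS at a limma adjusted p under 0.05. For the Nfkb1 member 21.7 kb from a gene end, DMSO libraries sit at 17.4 to 26.5 and LPS libraries at 50.8 to 62.0, while the Nfkb2 member is above 100 in every library.

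Cxcl2, the gene of a chemokine that attracts neutrophils, had the largest rise of both lists. Its member (chr5:90895794-90905801) is a wide one whose midpoint lies 3.1 kb from the gene end but which reaches over the start. Its height was 14.7, 22.2 and 25 in DMSO, 58.0, 59.8 and 65.7 in LPS, and 111, 89.4 and 103 in LPS+Skatole. The 3 groups were fully apart. The limma change was 1.8 for LPS against DMSO (SE 0.22, adjusted p = 1.78e-06), 0.44 for LPS+Skatole against LPS (adjusted p = 0.472) and 2.24 for LPS+Skatole against DMSO (adjusted p = 1.26e-08). It takes the tallest summit of each library, and these lay at different places in DMSO and in the other groups. The changes against DMSO are thus no test of p65 at a single site.

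The position of the peaks differed between the groups. In DMSO libraries the called peaks lay 2.5 to 6.6 kb before the start, with 16 to 34 fragments at their summits, and none was called at the start. In LPS libraries the tallest summit lay 0.2, 0.7 and 0.3 kb before the start, with 133, 133 and 154 fragments, and in LPS+Skatole libraries 0.2, 0.1 and 0.3 kb before it, with 260, 202 and 247 fragments. Of these 6 summits 3 fell inside the promoter window printed above, and the others lay before it. The upstream peaks stayed in every LPS and LPS+Skatole library. The local expected count at the tallest summit was 1.21 to 2.26 times the background in DMSO and 11.6 to 48 in the other groups, and its part in the result was not tested. With the authors' fold, which divides by it, the change with LPS was -1.38 (adjusted p = 0.337).

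**Figure D5:**
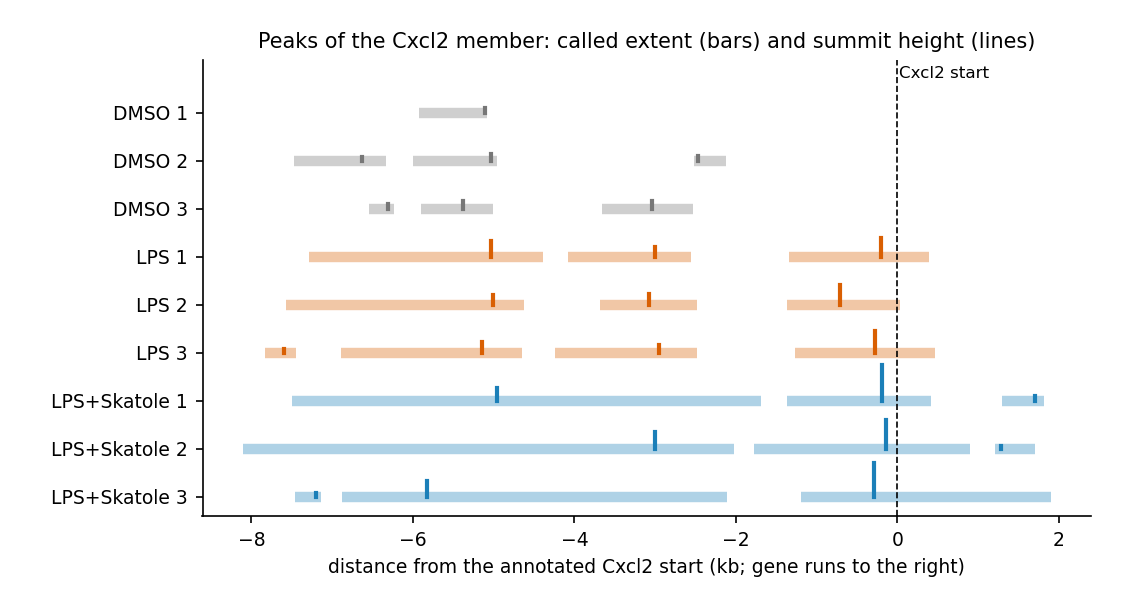
Peaks of the Cxcl2 member in each library against the distance from the annotated Cxcl2 start (kb): bars show the called extent and vertical lines the summits, drawn in proportion to summit height. A peak at the start is seen in every LPS and LPS+Skatole library, with 133 to 260 fragments at the summit, and in no DMSO library.

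Among all members, the 5 largest rises with LPS also lay at Igf2bp2, Rnf145, Gm46116 and Rad23b. The member in Igf2bp2, the gene of an RNA-binding protein (chr16:22123056-22125639), stood at 33.0, 17.9 and 14 in DMSO, 77.1, 73.7 and 86.6 in LPS, and 92.3, 45.6 and 79.3 in LPS+Skatole, a change with LPS of 2.16 (SE 0.26, limma adjusted p = 1.78e-06). The member assigned to Rnf145, the gene of a ubiquitin ligase (chr11:44503142-44504973), stood at 18.4, 17.2 and 18.4, then 61.0, 80 and 55.0, then 84.6, 50.9 and 46.8, a change of 2.04 (adjusted p = 1.41e-06). Both had LPS libraries far above DMSO and a local expected count near the background throughout. The member at the start of the long non-coding RNA Gm46116, 175 kb from the end of Uaca (chr9:61053635-61057458), went from 19.3, 14.3 and 15.5 to 49.2, 66.5 and 41.4 and was at 18, 25.2 and 42.2 in LPS+Skatole, a change with LPS of 1.86 (adjusted p = 0.000196). The member nearest to Rad23b, 97.6 kb away, rose by 1.82, and its local expected count ranged from 1.64 to 19.8 times the background, a range whose part in the result was not tested. By the authors' fold its change was -0.13.

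The largest fall with LPS was in Micu2. The member in Micu2, the gene of a regulator of mitochondrial calcium uptake (chr14:57909752-57911020), stood at 34.9, 25.7 and 27.2 in DMSO, 6.1, 8.99 and 10.7 in LPS, and 18.4, 18.1 and 27.1 in LPS+Skatole, a change with LPS of -1.6 (SE 0.31, limma adjusted p = 0.00299). The LPS libraries were lowest without overlap. Members assigned to Otulinl (-1.25), BC005537 (-1.19), Asb2 (-1.17) and Pmaip1 (-1.14) passed too, and each of these 4 calls was lost in 2 to 5 of the fits without 1 library, while that at Micu2 held in all of them. By the authors' fold none of the 37 falls was kept.

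In the other gene groups 0% to 3.12% of the members rose with LPS, where 2.16% of all members rose, and 34.8% to 67.9% of the genes of the first 4 had a member, where 16.7% of all protein-coding genes did. Of 40 genes of macrophage lineage factors and receptors 25 (62.5%) had a member, 52 in all, of which 0 rose and 1, at Csf2ra, fell, a call lost in 5 of the 6 fits without a library and turned to 0.42 by quantile normalisation. Of 22 AP-1, ATF and stress factor genes 12 (54.5%) had a member, and of the 32 members 1 rose, that of Nfe2l2, the gene of the antioxidant factor Nrf2. That member (chr2:75730181-75732240) stood at 23.9, 25 and 31.6 in DMSO, 41.8, 44.5 and 44.8 in LPS, and 47.9, 48.2 and 63.9 in LPS+Skatole, a change of 0.91 (SE 0.23, limma adjusted p = 0.0326) that was lost in 5 of the 6 fits without a library and under scaling by the genome background. Of 28 genes that restrain signalling or promote the decay of mRNA 19 (67.9%) had a member, 44 in all, and 1 rose, at Bcl2l1, the gene of the survival factor Bcl-xL. It stood at 12.8, 16.4 and 22.8 in DMSO, 42.3, 49.0 and 36.3 in LPS, and 38.0, 71.7 and 53.4 in LPS+Skatole, a change of 1.52 (SE 0.27, adjusted p = 0.000984) that held without any 1 library. Of 23 glutathione and antioxidant genes 8 had a member, and 0 of their 14 members passed. Of 22 oxidative phosphorylation genes 1, Cox4i1, had a member, and of a longer list of 28 genes of other cell types 1, Gata3.

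Adding skatole to LPS changed few members relative to the median region. With LPS+Skatole against LPS 3 members rose (0.0462%) and 7 fell (0.108%) by limma, where 0.0434% and 0.123% of all constitutive regions did, and 413 and 231 members had an unadjusted p under 0.05. Neither the NF-κB list (median change 0.03) nor the inflammatory list (0.13) had a called member. Scaled by the genome background, which shifts every change by 0.28 log2 units, 125 members rose and 3 fell, against 1.15% and 0.0434% of all constitutive regions. The scalings differ by this shift alone.

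The 3 members that rose lay at P2ry6, Abcb9 and Baiap2. The member assigned to P2ry6, the gene of a receptor for the nucleotide UDP (chr7:100950035-100952988), stood at 17.4, 17.2 and 52.3 in DMSO, 13.5, 8.99 and 12.8 in LPS, and 52.6, 54.9 and 51.8 in LPS+Skatole, a change of 1.92 against LPS (SE 0.33, limma adjusted p = 0.0054). In Abcb9, the gene of a lysosomal peptide transporter (chr5:124050263-124052491), the values were 34.0, 32.2 and 28.7, then 29.6, 27.4 and 23.9, then 100, 77.9 and 78.1, a change of 1.38 (SE 0.23, adjusted p = 0.00267). At a start of Baiap2, the gene of an actin regulator (chr11:119941998-119945126), they were 51.4, 51.5 and 59.6, then 15.7, 25.6 and 24.7, then 54.7, 55.7 and 58.9, a change of 1.11 (SE 0.23, adjusted p = 0.0264).

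In each of the 3, every LPS+Skatole library stood above every LPS library, and at P2ry6 and Baiap2 the LPS+Skatole libraries overlapped DMSO. The calls at P2ry6 and Abcb9 held without any 1 library, and that at Baiap2 was lost in 5 of the 6 fits without a library compared. In all 3 the local expected count moved with the height: at P2ry6 it was 18.6 to 20.4 times the background in LPS+Skatole and 2.29 to 4.85 in LPS, at Abcb9 25.4 to 53.6 and 4.64 to 9.26, and at Baiap2 8.24 to 33.8 and 2.55 to 8.16. Its part in the result was not tested. In units of the authors' fold the 3 changes were -0.67, -1.36 and -0.41.

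The 7 members that fell were mostly tall. The limit given below for the tallest members applies to those at Csf2ra and nearest to Galc. At Csf2ra, the gene of the α chain of the GM-CSF receptor (chr19:61266376-61267256), heights were 886, 955 and 1075 in DMSO, 681, 623 and 709 in LPS, and 430.4, 503 and 420.1 in LPS+Skatole, and the change against LPS was -0.85 (SE 0.09, limma adjusted p = 4.53e-07). The member at chr16:3351046-3351802, 241 kb from the nearest gene end, was at 193, 210.2 and 155 in DMSO, 179, 164 and 155 in LPS, and 74.8, 66.8 and 104 in LPS+Skatole (-1.32, adjusted p = 1.23e-05). At both, each LPS+Skatole library was below every other. At the second the local expected count was 93.9, 29.1 and 29.1 times the background in LPS and 28.7 to 30.3 in LPS+Skatole, and its part in the result was not tested. The member at the small nuclear RNA gene Gm25890 rose with LPS, and with LPS+Skatole it overlapped DMSO, at 87.2, 97.2 and 110.4, then 149.9, 123 and 128, then 97.4, 77.0 and 88.9 (limma changes of 0.64 with LPS, adjusted p = 0.031, and of -0.89 on adding skatole, adjusted p = 0.00798). Members at Impact (-0.62), Cr2 (-0.58) and Gm40363 (-0.55) and one 1141 kb from Galc (-0.16) passed as well. The call at Impact was lost in 4 fits without a library and that at Gm25890 in 2. Scaled by the genome background, the calls at Impact, Cr2 and Gm40363 were lost, and the change at the Galc member turned to 0.12 without passing. By the authors' fold none of the 7 falls was kept.

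Against DMSO the members rose with LPS+Skatole more often than they fell, and gene-end regions fell more often than they rose. Of the members 466 (7.18%) rose and 116 (1.79%) fell by limma, where 3.96% of all constitutive regions rose and 4.43% fell, and at gene ends 82 rose and 497 fell. The median change was 0.09 in members and -0.21 at gene ends. Rises made up 7.73% of members with no start and 0.883% of those at coding starts, of which 3.97% fell. Scaled by the genome background 564 members rose and 78 fell, where 4.92% of all constitutive regions rose and 2.5% fell, and at gene ends 116 rose and 268 fell. This scaling adds 0.083 to every log2 change in this comparison. On the authors' fold 123 members rose and 26 fell, and at gene ends 19 and 24. This comparison and LPS against DMSO share the DMSO libraries, so their values are not independent. Without LPS+Skatole library 2 or 3 the rises numbered 278 or 283.

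In the NF-κB list 6 of 21 members rose (28.6%) against DMSO and 0 fell, with a median change of 0.41. Of all members 7.18% rose, with a median change of 0.09. By the authors' fold 3 of the list rose, where 123 of all members did. At low local expected count 3 of 11 rose, where 320 of 4550 members did. Besides Nfkb1 (1.82), Tnip1 (1.04) and Tnip2 (1.18), the 6 rises were 2 members assigned to Tnfaip3 and 1 to Nfkbiz. The Tnfaip3 members stood at 32.1, 20.7 and 48.6 in DMSO and 55.6, 81.4 and 60.1 in LPS+Skatole (0.94, limma adjusted p = 0.0204), and at 11.9, 20 and 18.4 and 26.9, 54.9 and 49.3 (1.27, adjusted p = 0.0128). The Nfkbiz member, 77.3 kb from the gene end, stood at 12.8, 15 and 13.2 and 41.9, 27.4 and 31.7 (1.2, adjusted p = 0.0118). No DMSO library reached an LPS+Skatole library in these 3, and each call was lost when 1 or more single libraries were left out.

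In the inflammatory list 5 of 13 rose (38.5%) and 0 fell, with a median change of 0.77, where 7.18% of all members rose with a median of 0.09. The 5 rises were Cxcl2, both Acod1 members above, the Ptgs2 member at the start of Ptgs2os2 and the Ccl3 member. At Cxcl2 the summits compared lay at different places, as described above. Ptgs2 went from 28.5, 32.2 and 28.7 in DMSO to 58.1, 49.5 and 72.2 in LPS+Skatole (0.91, limma adjusted p = 0.0134), and Ccl3, the gene of a macrophage chemokine, from 41.3, 30.7 and 42.7 to 56.8, 69.0 and 83.5 (0.78, adjusted p = 0.0215). The Il1a member did not pass here (0.83, adjusted p = 0.0549). The Ccl3 call was lost in 3 fits without a library and that at Ptgs2 in 1, and the list had 3 rises without LPS+Skatole library 3, 0 by the authors' fold and 0 among its 5 members of low local expected count. With the authors' fold the Cxcl2 change was -1.26 and the Ptgs2 change -0.16.

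In the other lists the share that rose against DMSO was nearer to the 7.18% of all members, and none of the rises named here passed in LPS+Skatole against LPS. Of the 52 macrophage members 6 rose (11.5%) and 1 fell: at Cebpb, the gene of the lineage factor C/EBPβ, 2 members rose (1.22 and 0.86), at Runx1, another lineage factor, 2 (0.73 and 0.78), at Irf8 1 (1.04) and at the chemokine receptor gene Ccr2 1 (0.97). The first of these at Cebpb, 52.9 kb from a gene end, went from 37.6, 19.3 and 24.3 in DMSO to 58.6, 67.2 and 67.6 in LPS+Skatole. Of the 32 AP-1, ATF and stress members 3 rose (9.38%), 2 assigned to Fos (1.01 and 0.97) and that of Nfe2l2 (0.9), and by the authors' fold 0 rose. Of the 44 members of the restraining genes 5 rose (11.4%), at Bcl2l1 (1.56), Pim1 (1.43), Dusp5 (0.83), Btg2 (0.77) and Ier3 (0.71). At Pim1 the local expected count was 3.85 to 4.75 times the background in DMSO and 36.3 to 36.4 in LPS+Skatole, its part in the result was not tested, and with the authors' fold the change was -1.67. Of the 14 glutathione and antioxidant members 2 rose, at Prdx1, the gene of a peroxiredoxin (1.39, limma adjusted p = 0.00295), and at Slc7a11, the cystine transporter gene (0.89, adjusted p = 0.0394). Prdx1 stood at 20.2, 11.4 and 22.8 in DMSO, 15.3, 23.8 and 17.9 in LPS, and 50, 43.4 and 52.2 in LPS+Skatole, and its change against LPS, 1.09, had an adjusted p of 0.139. Many of these calls were not stable: over the fits without 1 library the macrophage list had 3 to 6 rises and the restraining genes 3 to 5, and by the authors' fold they had 1 and 0. Single calls were lost in 5 such fits at Ccr2, in 4 at Dusp5, Btg2, Slc7a11 and the second Fos member, and in 3 at Ier3 and both Runx1 members.

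Across all members the largest rises against DMSO lay at Cxcl2, Rad23b (2.16), Prl2c3 (2.14) and Atp2b1 (2.06), the gene of a plasma membrane calcium pump, and at 4921524L21Rik (2.0). The Atp2b1 member (chr10:98941874-98947251) stood at 8.26, 12.2 and 14 in DMSO, 20, 31.0 and 15.8 in LPS, and 50.9, 50 and 48 in LPS+Skatole, with a local expected count at the background in every library. Its 3 groups were apart (limma adjusted p = 3.83e-05). At Prl2c3 the local expected count was 1.71 to 3.55 in DMSO and 9.32 to 28.8 in LPS+Skatole, with its part in the result not tested, and the authors' fold gave -0.79. The largest falls were at Spns3 (-1.51), Wdr43 (-1.5), Cdc123 (-1.48), Stn1 (-1.46) and BC005537 (-1.44). The Wdr43 member, in the gene of a ribosome assembly factor, stood at 19.3, 20 and 14.7 in DMSO and 6.84, 5.75 and 7.52 in LPS+Skatole.

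A few members were far taller than the rest. The tallest, in Col19a1 (chr1:24611544-24616182), averaged 105407 times background, with 149807 to 156075 for DMSO, 72318 to 74618 for LPS and 89459 to 90460.2 in LPS+Skatole, and a local expected count of 14545 to 15949 times the background. Next came a member 1141 kb from Galc (13674), 1 in Myo3a (11624) and members nearest to Tyrp1 (1672), Ccnh (1490.4), Plod2 (1467), Ric8b (1325), Stxbp4 (845), Pth2r (717) and Csf2ra (698). All 10 fell with LPS (limma adjusted p from 6.8e-24 at Col19a1 to 0.0394 at Csf2ra), by 0.74 to 0.87 in the 9 apart from Csf2ra, whose fall was the unstable one described above. Of these 10 calls 0 were kept by the authors' fold, and under quantile normalisation, which gives equal ranks equal values, 1 was kept and 1 member, that at Csf2ra, rose. The tallest gene-end region reached 255.823. The Blank sample was not analysed, and no regions were left out for problems of read mapping. Whether signal of such height reflects p65 was therefore not tested, and these falls are not shown to be a loss of p65. In all 13 members exceeded 500 times the background, and without regions of this height 21 members fell with LPS in place of 37.

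Among members at coding starts the tallest lay at Lmna, the gene of lamin A and C (218), Nfkb2 (158), Iffo2 (146), Tef (134) and Dennd4a (134). This Lmna member is not the one that holds the Lmna window printed above, which stood at 118. The tallest at long non-coding RNA starts were 1700113A16Rik beside Mef2d (195), Mir22hg (170.3) and Chaserr (124). With LPS against DMSO 1 of the 453 coding start members rose, the one at Cxcl2, and 3 fell.

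Of 408 tRNA genes 98 (24.0%) lay in 54 members with a median height of 49.9, and 42 lay in gene-end regions. The 20 members at small nuclear RNA genes, which serve splicing, had a median of 61.1, with Gm25313 (147), Rnu5g (137), Gm25890 (107) and Rnu2-10 (102) tallest. A member near Osbp that held 7 tRNA genes stood at 105. The 19 members at miRNA genes had a median of 32.1 and the 14 at small nucleolar RNA genes 36.7.

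Of the miRNA members above, that of miR-15b and miR-16 stood at 57.8, 79.4 and 69.2 in DMSO, 44.9, 43.1 and 61.9 in LPS, and 58.6, 30.5 and 63.1 in LPS+Skatole, and that of miR-210, a miRNA induced by low oxygen, at 67.0, 71.5 and 93.5, then 77.1, 75.9 and 62.7, then 107, 48.7 and 72.2. Neither passed in any comparison. The summits of the miR-15b and miR-16 member fell within 275 bp, and the median summit lay 0.028 kb from a gene end. Its heights were thus not read at the hairpins. The member of let-7i stood at 31.2, 46.5 and 44.9 in DMSO and 23.5, 17.1 and 25.2 in LPS, with no overlap but an adjusted p of 0.21 by limma. Its summits ranged over 4882 bp across the 9 libraries, so these heights may belong to different peaks. The member of miR-7671, 6.46 kb from an end of Irf1, an interferon response gene, went from 38.5, 34.3 and 22.8 in DMSO to 48.8, 56.2 and 40.1 in LPS (0.82, adjusted p = 0.0626) and 52.6, 62.4 and 69.7 in LPS+Skatole (0.89 against DMSO, adjusted p = 0.0164). Of the 16 members with a hairpin it alone passed in any comparison, where 7.18% of all members rose against DMSO in this one.

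Members gathered in places. Joined across short gaps, of which the widest was 12.497 kb, they formed 4935 stretches, of which 1044 held at least 2 members, 2602 (40.1%) in all, and 117 held at least 4. The stretch with the most members, 11 in 47.9 kb, assigned to Gm40363 and Pdia4 (chr6:47744106-47791999), had heights of 29.1 to 259.5 and included the Y RNA gene Rny1. A stretch of 75.9 kb at Htra4 and Plekha2 (chr8:25034015-25109933) held 10, with heights of 13.2 to 49.5. In the second stretch no member passed in any comparison, and in the first 1 did. Counted by gene, Atxn1, Cadm1, Fndc3b and Ubash3b had 11 members each, in bodies of 151 to 415 kb, and Akap13 10. Fos, with a body of 3.38 kb, also had 10, all outside its body.

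The 3 kb limit cuts a continuous range. The members nearest to it lay at Tmem184b (3002 bp, height 34.6), Usf2 (3004 bp, 27.4) and Pif1 (3005 bp, 23.6). The constitutive regions just within it lay at Acsl5 (2998 bp, 17.8), Cd81 (2999 bp, 31.5) and Hnrnpf (2999 bp, 21.3). Of the members 82 had their median summit within 3 kb of a gene end.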

How the data were processed

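CUT&Tag for p65 (phosphorylated p65 per the methods) was done on 9 RAW264.7 libraries in 3 groups. Per the submitters' processing notes, mm10 was used with fastp 0.20.1, HISAT2 2.1.0 and StringTie 2.0, and which of them served these libraries, the peak caller, the control of the local expected count and the handling of duplicates are not given in the sources used here. The authors deposited 1 peak list per library with 4 kinds of value: a score, the whole part of 10 times −log10 p; the fold at the summit over the local expected count; −log10 p and −log10 q; and the summit position. A fold over the local expected count lowers a summit where the surroundings are also high.

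From the deposited fold and p, summit fragments and the local expected count were solved as a Poisson pair, and came out whole within 0.02 for nearly all peaks. Heights are these fragments over the genome background. Members were tested with limma 3.58.1 (R 4.3.3, trend, all 9 libraries) on log2 fragments of all constitutive regions, with Benjamini-Hochberg adjustment at 0.05. Library medians were compared by two-sided exact permutation tests (Python 3.11.15, scipy 1.17.1). Code was tested on simulated data. Fragment numbers limit precision, and duplicates may be among them. Distances and sequences come from RefSeq on GRCm38.p6. A planned search for motifs around summits was replaced by promoter windows.

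Members and gene lists were chosen with earlier results of these data known. Named are the 10 tallest members, per comparison the 5 largest rises and falls past the threshold whose groups did not overlap, members of the gene lists, the 3 stretches with most members (1 of them is not reported here), the 5 genes with most members and the 3 regions on each side of the 3 kb limit. Members at small RNA genes, at starts, with miRNAs or κB matches, of the glutathione list, and all 10 calls of LPS+Skatole against LPS were named after their values were seen. Alternatives were other peak thresholds, overlaps, distances, scalings, measures and samples, and single libraries left out.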

Additional observations from a re-analysis of the deposited data

Results flagged for a closer look

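Peaks on sequences other than chromosomes 1 to 19, X and Y were outside every comparison above. The 9 lists held 424 such peaks on 21 sequences, which merged into 173 regions, and 11 of these had a peak in all 9 libraries. The lists had 31, 26 and 30 such peaks in DMSO, 46, 41 and 50 in LPS, and 64, 68 and 68 in LPS+Skatole, or 0.0598 to 0.0825%, 0.0705 to 0.0826% and 0.0813 to 0.087% of each list. They came to attention because a signal in all 9 libraries lies outside the regions described, and no control sample was analysed here.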

How the results depend on the processing

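Of 187 values for the comparisons under other settings 146 kept their direction and size, 39 moved and 2 reversed. Of 854 values for named members 695 were unchanged in call, 149 lost the call and 10 reversed. The cause was not tested unless the setting itself shows it. Settings that restrict the local expected count, leave out regions over 500 times the background or keep only members with no start were chosen after seeing the data. More than 10 kb from gene ends there were 4281 members. With the authors' fold the LPS minus DMSO difference of member medians was 0.134, the gap to gene ends differed by 0.172 between LPS+Skatole and LPS (0.167 at low local expected count), and the named changes were -0.13 (Rad23b) and -1.38 (Cxcl2) with LPS, -0.67 (P2ry6), -1.36 (Abcb9) and -0.41 (Baiap2) for LPS+Skatole against LPS, and -1.26 (Cxcl2), -0.79 (Prl2c3) and -0.16 (Ptgs2) against DMSO. Quantile normalisation gave Csf2ra 0.42 with LPS. The share of summit fragments in members differed between LPS and DMSO by -4.79 percentage points with lists cut to the shortest, -2.86 without regions over 500 times the background and, as a share of peaks, -5.95; between LPS+Skatole and LPS it was 0.213 with cut lists and -3.48 as a share of peaks.

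For LPS against DMSO, rises numbered 79 scaled by background, 22 with the authors' fold and 92 at low local expected count, and falls 163, 2 and 13, with 15 under quantile normalisation and 21 without regions over 500 times the background. For LPS+Skatole against LPS, rises numbered 125 scaled by background, 12 under quantile normalisation, 7 with only the 2 groups and 0 at low local expected count, and falls 3, 3 with the authors' fold, 11 with only the 2 groups and 0 at low local expected count. For LPS+Skatole against DMSO, rises numbered 123 with the authors' fold, and falls 26 with it, 60 under quantile normalisation and 77 at low local expected count.

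Leaving out 1 library gave 6587 to 7439 members. Differences of member medians ran from -0.15 to -0.114 (LPS minus DMSO) and 0.354 to 0.39 (LPS+Skatole minus LPS), changes of the gap from 0.127 to 0.166 and 0.179 to 0.191, and of the fragment share from -9.18 to -8.23 and -2.98 to -2.09. Rises with LPS ran from 53 to 130 and falls from 21 (without LPS 1) to 37. For LPS+Skatole against LPS, rises ran from 2 to 7 and falls from 3 (without LPS 1 or LPS+Skatole 2) to 11, both highest without DMSO 1. Against DMSO, rises ran from 278 to 446 and falls from 76 (without LPS+Skatole 3; 77 without DMSO 1) to 111. Same-numbered libraries did not deviate together (correlations of -0.00963 to 0.0141 over 9 pairs, and 0 of 9 libraries correlated best with its own number in both other groups), so they share only a number. With the replicate block limma gave 120 rises and 33 falls with LPS, 3 and 7 for LPS+Skatole against LPS, and 444 and 118 against DMSO, and the exact sign-flip p of each median difference was 0.25, the smallest that 3 pairs allow. The planned motif windows around summits were not run, because only RefSeq promoter and small RNA sequences, and not the whole genome sequence, were used here.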
